A study of Rattus norvegicus with 9 samples.

Results

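The genes described here are the collagens and the enzymes and chaperone that build collagen in the endoplasmic reticulum and cross-link it outside the cell. They were picked by a name rule that was chosen with earlier results of these data known. It takes every gene of the deposited table named Col, a number, a and a number. It adds Lox, Loxl1 to Loxl4, P4ha1 to P4ha3, Plod1 to Plod3 and Serpinh1. That rule found 54 of the 32623 genes in the table, of which 10 encode fibrillar collagens, 6 the type IV chains of basement membranes, 26 other collagens and 12 enzymes or the chaperone. The data are 9 messenger RNA libraries of spinal cord, from female rats of the Wistar strain aged 8 weeks and weighing 200 to 230 g. Sham, with 3 libraries, had the lamina opened and no cord injury. C_Spinal, also with 3, had a spinal cord injury and distilled water by gavage. T_Spinal, with the last 3, had the same injury and 3 mL a day of Modified Erxian Decoction, a mixture of traditional Chinese medicine, by gavage. C_Spinal against Sham asks what injury with water by gavage did to these transcripts, and T_Spinal against C_Spinal what the decoction did after injury. Below, 'with injury' stands for the first comparison and 'with decoction' for the second. The labels give no time after injury, method or level of injury, or length of cord taken. They also leave unsaid whether each library is a rat of its own, so a p-value here reflects how far libraries of a group differ, and that spread may be technical.

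Collagens are secreted proteins whose chains wind into a triple helix. Prolyl 4-hydroxylases (P4ha) make the hydroxyproline that stabilises the helix, lysyl hydroxylases (Plod) modify lysines that later carry sugars and cross-links, and the chaperone encoded by Serpinh1 (HSP47) binds the folded helix in the endoplasmic reticulum. Outside the cell, fibrillar collagens assemble into fibrils that lysyl oxidases (Lox, Loxl) cross-link, while type IV chains form the sheet under endothelium and around Schwann cells. In healthy cord, fibrillar collagen lies mainly in the meninges, nerve roots and larger vessels, and after injury fibroblast-like cells deposit it in the scar.

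Library depth ranged from 57 to 69.8 M counts (M, counts in units of 1e+06). Levels are the authors' FPKM (fragments per M sequenced, divided by transcript length in kilobases), which can be compared between genes because they are per length. Summed over all genes, FPKM was lowest in Sham and highest in C_Spinal, so changes are taken from the counts with edgeR, scaled between libraries by TMM. A change is called at a Benjamini-Hochberg adjusted p below 0.05 over the 14791 genes that averaged an FPKM of 1 or more. The neuronal and oligodendrocyte markers fixed for a check of the tissue were all present in Sham, and all 10 of each fell in C_Spinal, while all 12 macrophage and microglia markers rose. In bulk tissue, fewer cells of a type and less RNA per cell cannot be told apart.

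Of the 54 genes, 43 reached the mean FPKM of 1 and were tested, and 7 of these (Col13a1, Col28a1, Col4a6, Col7a1, Col8a1, Lox and P4ha3) had a Sham mean below 1 and so passed through the injured groups. After injury with water, 36 of the 43 were called higher than Sham, where 38.1% of all genes tested were, and 6 were called lower, where 37.4% were. By at least 2-fold, 31 were called higher against a background of 17.9%, and 2 lower against 15.4%. The median log2 fold change was 1.92 for the 43 genes and 0.02 for all genes tested. With decoction, 30 of the 43 were called lower than in C_Spinal, where 17.9% of all genes tested were, and 3 were called higher, where 20.7% were. By at least 2-fold, 8 were called lower against 1.78%, and none higher against 1.58%; the largest rise was that of Col4a3. The median was -0.61 for the 43 and -0.00 for all genes tested. T_Spinal still stood above Sham for 35 of the 43 (background 35%) and below it for 6 (background 36.6%), with a median of 1.34; by at least 2-fold it stood above for 23 (background 14.8%) and below for 3 (background 13%). Without an expression minimum, over all 54 genes, 39 were higher and 7 lower in C_Spinal than in Sham (background 27.6% and 26.5%), and 3 higher and 32 lower in T_Spinal than in C_Spinal (background 13% and 10.7%). Against Sham, T_Spinal had 38 higher and 9 lower in that fit (background 25.2% and 25.1%). Medians over the 54 genes were then 1.53 for C_Spinal against Sham and -0.60 for T_Spinal against C_Spinal. For T_Spinal against Sham the median was 0.92. In FPKM, every C_Spinal library lay above every Sham library for 36 of the 43 tested genes (background 45.6%) and below for 5 (background 33.9%). Every T_Spinal library lay below every C_Spinal library for 30 (background 21.7%) and above for 3 (background 30.3%). Set against Sham, T_Spinal lay wholly above for 36 (background 45%) and wholly below for 5 (background 30.7%). C_Spinal enters both of the first comparisons, so a library level that is high there raises the one and lowers the other.

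**Figure D1:**
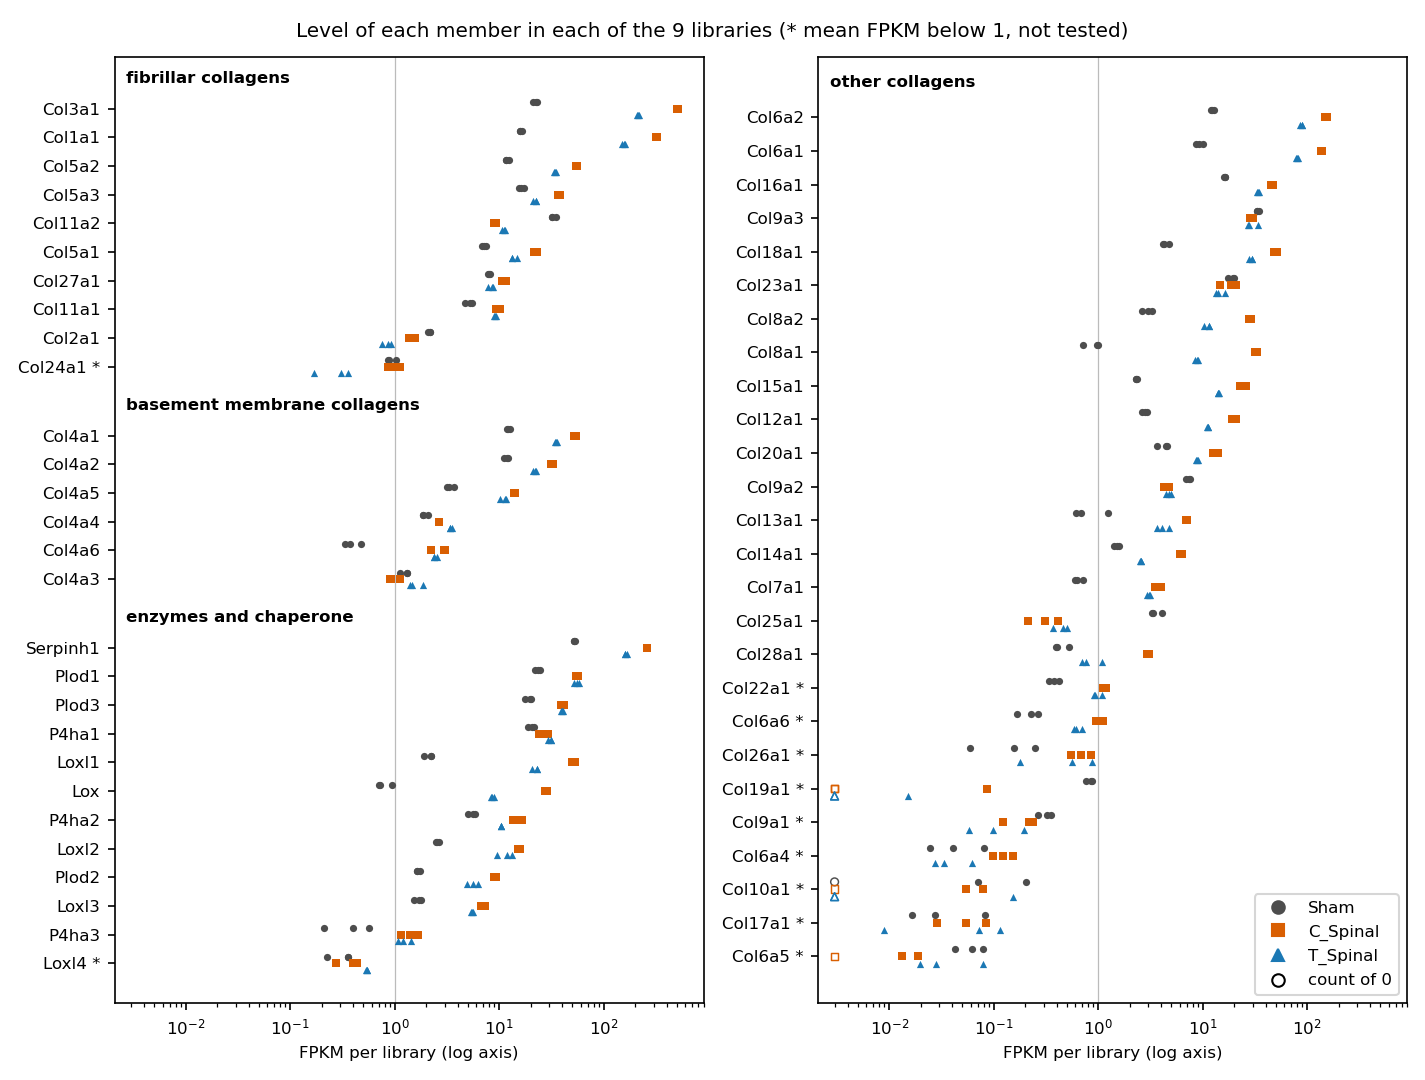
FPKM (log axis) of each of the 54 genes in each of the 9 libraries, with grey circles for Sham, orange squares for C_Spinal and blue triangles for T_Spinal. Genes are ordered within their class by mean FPKM, open symbols at the left edge mark a count of 0, and the grey line marks an FPKM of 1; Col3a1 and Col1a1 reach the highest levels, with C_Spinal rightmost and Sham leftmost.

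The fibrillar collagens held the most abundant transcripts of the family after injury. Col3a1, the sole chain of type III collagen in vessel walls and early scars, had an FPKM of 23.2, 22.7 and 21.0 in the Sham libraries, 506, 513 and 509 in C_Spinal and 214, 216 and 206 in T_Spinal. The groups did not overlap, and the T_Spinal libraries lay between the others. In edgeR, Col3a1 rose 21.0-fold with injury (log2 fold change 4.39, SE 0.0462, adjusted p = 4.45e-13) and stood at 40.6% of its C_Spinal level with decoction (log2 fold change -1.30, SE 0.0407, adjusted p = 2.51e-08). It lies at chromosome 9, 52023295 to 52059217, in the deposited table, whose genome build is not given in the sources used here.

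Col1a1, the major chain of type I collagen, followed the same order of groups. Its FPKM was 15.7, 15.9 and 16.6 in Sham, 323, 313 and 320 in C_Spinal and 161, 157 and 150 in T_Spinal. Every C_Spinal library was above every T_Spinal library, and these above every Sham library. The rise with injury was 18.2-fold (log2 fold change 4.19, SE 0.0378, adjusted p = 2.86e-13 in edgeR), and T_Spinal was at 47.8% of C_Spinal (log2 fold change -1.07, SE 0.0334, adjusted p = 2.51e-08). The partner chain of Col1a1 in type I collagen, alpha 2, carries no Col symbol in the table and so fell outside the name rule. The row described there as collagen, type I, alpha 2 (ENSRNOG00000011292) had an FPKM of 15.7, 15.5 and 14.6 in Sham, 224, 219.9 and 187 in C_Spinal and 107, 91.4 and 92.3 in T_Spinal. It rose by 3.67 on the log2 scale with injury (SE 0.0875, adjusted p = 8.14e-11 in edgeR) and fell by 1.15 with decoction (SE 0.0794, adjusted p = 3.43e-06). The FPKM of Col1a1 relative to this row was 1.06 ± 0.0721 in Sham (SD, n = 3), 1.52 ± 0.160 in C_Spinal and 1.62 ± 0.106 in T_Spinal. The ranges of this ratio in the injured groups overlapped each other and lay above Sham.

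The minor fibrillar collagens, which join type I and type II fibrils and limit their width, moved less. The type V chains rose with injury by 2.08 (Col5a2), 1.53 (Col5a1) and 1.07 (Col5a3) on the log2 scale, and were lower with decoction by log2 fold changes of -0.72, -0.73 and -0.81, all called in edgeR. Col5a3 had a mean FPKM of 16.3 ± 0.875 (SD, n = 3) in Sham, 37.4 ± 0.563 in C_Spinal and 21.9 ± 0.786 in T_Spinal. Col5a2 lies beside Col3a1 on chromosome 9, at 52092511 to 52238564 on the other strand, and its rise of 2.08 was smaller than the 4.39 of Col3a1. Col27a1 rose by 0.36 with injury and fell by 0.45 with decoction. Its difference between T_Spinal and Sham was not called (log2 fold change -0.10, adjusted p = 0.149) and had the other sign, 0.06, with counts scaled by their total. Col11a1 rose by 0.83, and its difference with decoction (log2 fold change -0.17) was not called, with an adjusted p = 0.0645 in edgeR. It was called lower with only the 2 groups in the fit (adjusted p = 0.0284), without the third Sham library (adjusted p = 0.02) and without the third C_Spinal library (-0.21, adjusted p = 0.0398).

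Col2a1 and Col11a2, unlike Col11a1, went down with injury. Col2a1, the chain of type II collagen in cartilage, fell from an FPKM of 2.14 ± 0.0357 in Sham (SD, n = 3) to 1.46 ± 0.0937 in C_Spinal and 0.841 ± 0.0830 in T_Spinal. Both steps were called, with log2 fold changes of -0.67 and -0.83. Col11a2, a chain of type XI collagen, fell from 32.8 ± 1.61 to 9.09 ± 0.167 and was 11 ± 0.388 with decoction, a rise of 0.24 on the log2 scale that was called (SE 0.0418, adjusted p = 0.0014 in edgeR). A second row, described as collagen alpha-2(XI) chain-like, could share its reads if the sequences are alike, which was not tested; that row also fell with injury, by 1.97 on the log2 scale, and did not pass the test with decoction (log2 fold change 0.01). Of the cartilage and bone markers, 12 genes of which 5 were tested, 2 rose and 2 fell in C_Spinal, and 2 rose and 1 fell in T_Spinal against C_Spinal. Their summed FPKM ran from 18.5 to 19.0 in Sham, from 16.8 to 17.7 in C_Spinal and from 9.08 to 9.51 in T_Spinal, with Matn1 at 0 in C_Spinal. All 10 oligodendrocyte markers fell with injury and 9 rose with decoction, as Col11a2 did, and their summed FPKM ran from 27722 to 27945 in Sham, from 8519 to 8603 in C_Spinal and from 10358 to 10562 in T_Spinal, with none at 0. The part of either list in these results was not tested. In all, 7 of 9 tested fibrillar genes were called higher (background 38.1%) and 2 lower (background 37.4%) with injury, with a median of 1.07. With decoction, 7 were lower (background 17.9%) and 1 higher (background 20.7%), with a median of -0.73.

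**Figure D2:**
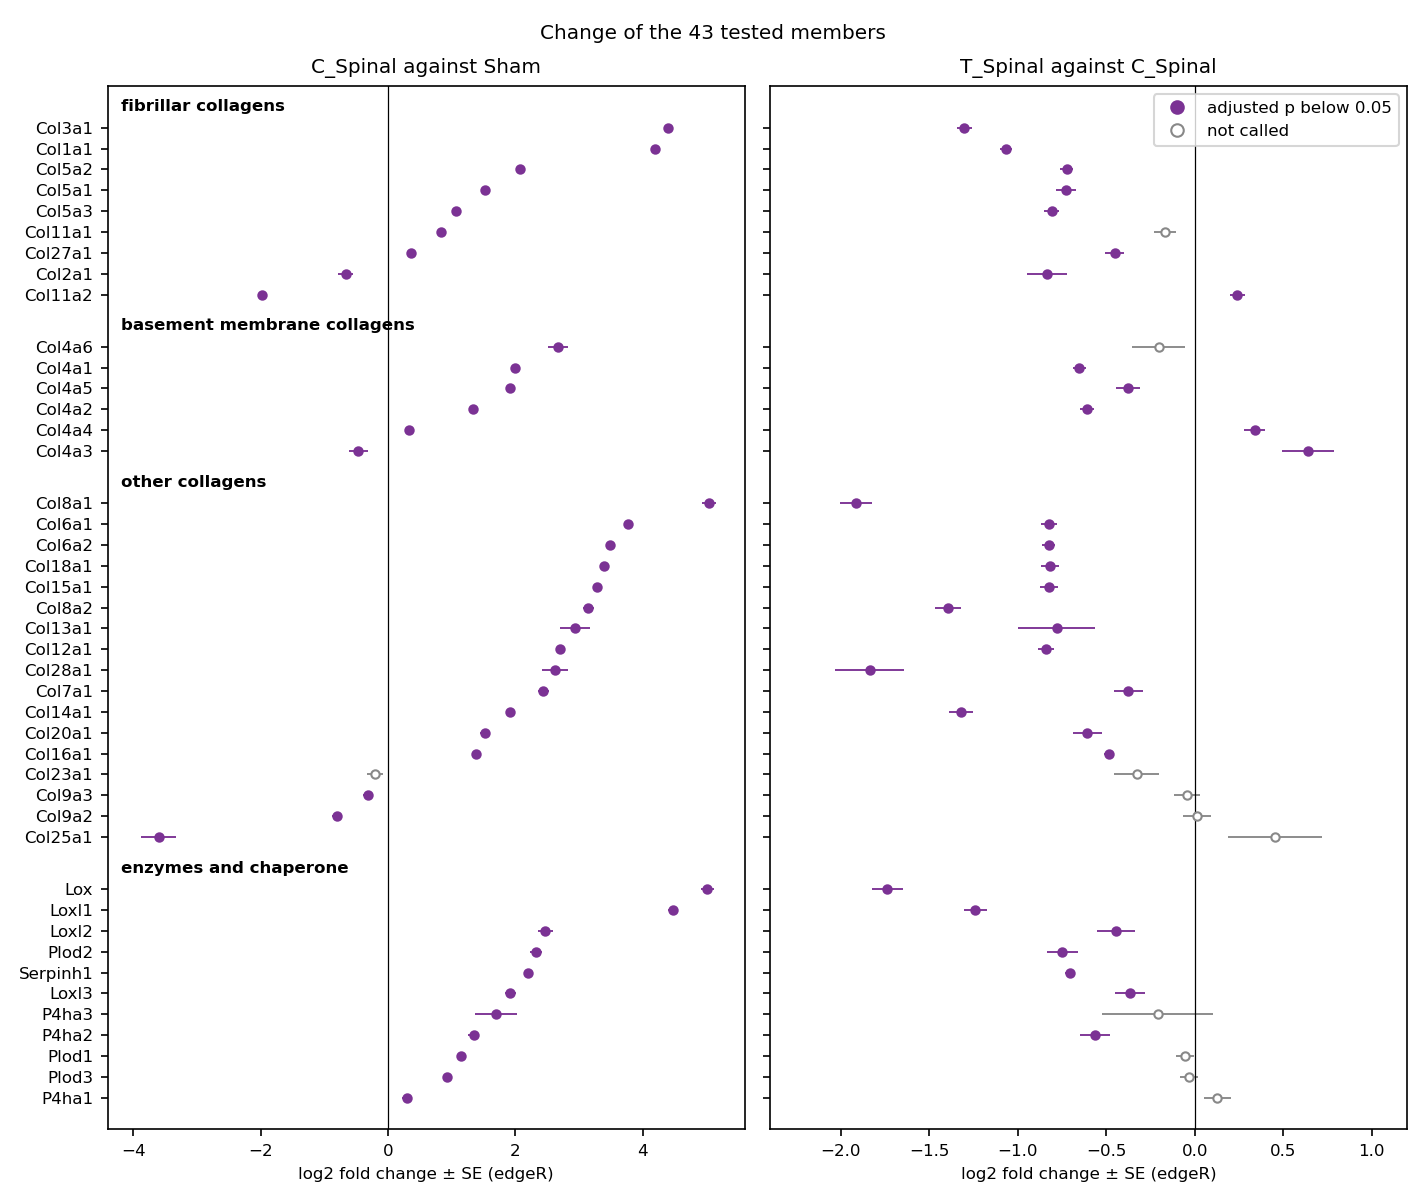
Log2 fold change with its SE from edgeR for the 43 tested genes, with C_Spinal against Sham on the left and T_Spinal against C_Spinal on the right, each panel with its own axis. Filled points have an adjusted p below 0.05; 36 lie to the right of 0 on the left and 30 to the left of 0 on the right, while Col4a3, Col4a4 and Col11a2 rise on the right.

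The type IV collagens are encoded in pairs whose start sites face each other, so that each pair shares the DNA between them. In the RefSeq annotation of build GRCr8, 76 bases separate the start sites of Col4a1 and Col4a2, 412 those of Col4a3 and Col4a4, and 1414 those of Col4a5 and Col4a6. The sequence shared by Col4a1 and Col4a2, and the 250 bases before Col4a3 and before Col4a5, are shown because the pairs differed in how their chains changed. All are on the plus strand, 5′ to 3′, from RefSeq (GRCr8), at chr16:84885521-84885596, chr9:91323740-91323989 and chrX:109907109-109907358. Capitals mark the letters GGGCGG (the core of a GC box) on either strand, where it reads CCGCCC, and GAANNTTC, a heat shock element core.
Col4a1-Col4a2: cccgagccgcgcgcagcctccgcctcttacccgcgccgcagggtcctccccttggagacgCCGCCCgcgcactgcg
Col4a3: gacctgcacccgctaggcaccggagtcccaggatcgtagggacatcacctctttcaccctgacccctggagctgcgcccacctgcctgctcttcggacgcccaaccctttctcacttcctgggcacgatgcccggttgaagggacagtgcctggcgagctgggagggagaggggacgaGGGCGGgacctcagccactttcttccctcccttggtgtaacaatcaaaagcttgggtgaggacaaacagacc
Col4a5: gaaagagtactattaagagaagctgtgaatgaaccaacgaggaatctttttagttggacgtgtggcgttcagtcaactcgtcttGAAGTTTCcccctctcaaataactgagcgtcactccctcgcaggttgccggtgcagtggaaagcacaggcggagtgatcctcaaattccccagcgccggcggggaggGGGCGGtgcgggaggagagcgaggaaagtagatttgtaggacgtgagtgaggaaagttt
Each of these windows held GGGCGG, and that of Col4a5 also held GAANNTTC. In the 250 bases before the start site, on both strands, GGGCGG was present in 30.5% of 33469 RefSeq promoters, GAANNTTC in 7.23%, CCAAT in 34.0% and TATAAA in 12.9%. Of the 54 genes, 43 matched a RefSeq promoter, and 26 of these held GGGCGG, 5 GAANNTTC, 11 CCAAT and 3 TATAAA. The matches in the printed windows do not overlap, and a match describes letters and not a bound site.

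Col4a1 and Col4a2, the chains of nearly all basement membranes, both rose with injury and fell with decoction. Col4a1 had an FPKM of 11.9, 12.2 and 12.7 in Sham, 53.3, 51.5 and 54.0 in C_Spinal and 35.4, 34.5 and 33.8 in T_Spinal. It rose 3.97-fold with injury (log2 fold change 1.99, SE 0.0355, adjusted p = 1.11e-11 in edgeR) and was at 63.7% of C_Spinal with decoction (log2 fold change -0.65, SE 0.0342, adjusted p = 6.71e-07). Col4a2 had an FPKM of 12.1, 11.2 and 11.8 in Sham, 32.4, 32.6 and 31.4 in C_Spinal and 21.8, 22.2 and 20.9 in T_Spinal. Its log2 fold changes were 1.34 (SE 0.0412, adjusted p = 5.24e-10 in edgeR) and -0.61 (SE 0.0405, adjusted p = 2.85e-06). For both genes no 2 groups overlapped. The ratio of Col4a1 to Col4a2 in FPKM was 1.05 ± 0.0610 in Sham (SD, n = 3), 1.65 ± 0.0718 in C_Spinal and 1.60 ± 0.0409 in T_Spinal, so it differed between Sham and the injured groups and overlapped between C_Spinal and T_Spinal.

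Col4a3 and Col4a4, the chains that join Col4a5 in specialised membranes such as that of the kidney glomerulus, were the only type IV genes called higher with decoction. Col4a3 had an FPKM of 1.13, 1.31 and 1.30 in Sham, 0.894, 1.13 and 0.925 in C_Spinal and 1.38, 1.87 and 1.46 in T_Spinal. Its C_Spinal libraries reached into the Sham range, and its T_Spinal libraries were above both in FPKM. The fall with injury (log2 fold change -0.47, SE 0.147, adjusted p = 0.015 in edgeR) was lost without the first C_Spinal library (log2 fold change -0.40, adjusted p = 0.0537) and with counts scaled by their total (-0.34, adjusted p = 0.0551). Its rise with decoction was 0.64 (SE 0.147, adjusted p = 0.00665), and T_Spinal against Sham was not called (0.18, adjusted p = 0.304). A second row described as collagen alpha-3(IV) chain-like had reads in 1 library of each group and could share those of Col4a3. Col4a4 had an FPKM of 1.93 ± 0.123 in Sham (SD, n = 3), 2.65 ± 0.00959 in C_Spinal and 3.44 ± 0.107 in T_Spinal, and rose at both steps, by 0.33 and 0.34 on the log2 scale, both called.

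Col4a5 and Col4a6, the pair on the X chromosome, both rose with injury. Col4a5 went from 3.39 ± 0.286 (SD, n = 3) in Sham to 14 ± 0.175 in C_Spinal and 11.1 ± 0.840 in T_Spinal, with log2 fold changes of 1.92 and -0.38, both called. Col4a6, found with Col4a5 around smooth muscle, had an FPKM of 0.375, 0.336 and 0.474 in Sham, 2.24, 2.96 and 3.04 in C_Spinal and 2.54, 2.40 and 2.40 in T_Spinal. It rose 6.37-fold with injury (log2 fold change 2.67, SE 0.162, adjusted p = 1.01e-07 in edgeR). Its T_Spinal libraries lay within the range of C_Spinal, and the difference with decoction was not called (log2 fold change -0.20, SE 0.149, adjusted p = 0.317). Over the class, 5 of 6 genes were called higher (background 38.1%) and 1 lower (background 37.4%) with injury. With decoction, 3 were lower (background 17.9%) and 2 higher (background 20.7%).

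**Figure D3:**
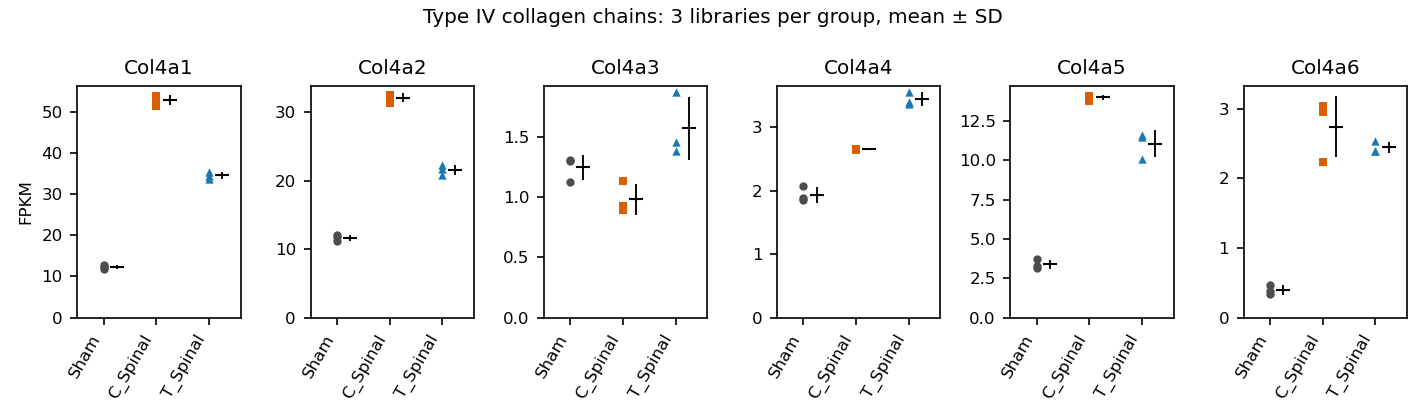
FPKM of the 6 type IV chains (one panel each, with its own axis from 0), with 3 points per group and the mean ± SD beside them. Col4a1, Col4a2 and Col4a5 are highest in C_Spinal, and Col4a3 and Col4a4 are highest in T_Spinal.

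Among the other collagens, both of the tested hexagonal network type VIII chains, known from subendothelial matrix and vessel remodelling, rose with injury and fell with decoction. Col8a1 had an FPKM of 0.985, 0.974 and 0.722 in Sham, 31.3, 32.7 and 32.6 in C_Spinal and 8.88, 8.39 and 9.04 in T_Spinal. Its 3 groups were far apart and its replicates close. The rise with injury was 32.9-fold (log2 fold change 5.04, SE 0.108, adjusted p = 3.93e-11 in edgeR) and with decoction it was at 26.5% of C_Spinal (log2 fold change -1.91, SE 0.0916, adjusted p = 3.69e-07). Col8a2, the partner chain, rose by 3.15 and fell by 1.39 on the log2 scale, both called. The ratio of Col8a1 to Col8a2 in FPKM was 0.306 ± 0.0653 in Sham (SD, n = 3), 1.13 ± 0.0392 in C_Spinal and 0.794 ± 0.0790 in T_Spinal, with no overlap between groups. The 250 bases before the RefSeq start site of Col8a1 (chr11:56246532-56246781, GRCr8, plus strand) are shown as the promoter of a gene with a large change at both steps, with GGGCGG on either strand in capitals; the letters occurred 4 times.
Col8a1: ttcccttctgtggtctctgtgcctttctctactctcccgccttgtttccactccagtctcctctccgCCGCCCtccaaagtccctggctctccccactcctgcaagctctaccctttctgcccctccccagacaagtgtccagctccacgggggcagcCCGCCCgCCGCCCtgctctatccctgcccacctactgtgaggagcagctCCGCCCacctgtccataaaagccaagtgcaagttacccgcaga

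The type VI chains form beaded filaments around cells, and Col6a1 and Col6a2 had the highest mean FPKM of the class in both injured groups, though not in Sham. Col6a2 had an FPKM of 12.3, 12.0 and 12.8 in Sham, 151, 147 and 155 in C_Spinal and 88.2, 89.2 and 84.6 in T_Spinal. Col6a1 had 8.71, 9.97 and 9.17 in Sham, 139, 135 and 139 in C_Spinal and 79.7, 81.7 and 78 in T_Spinal. Both showed the same separation of the 3 groups. The rises were 11.2-fold for Col6a2 (log2 fold change 3.49, SE 0.0395, adjusted p = 8.09e-13 in edgeR) and 13.6-fold for Col6a1 (log2 fold change 3.77, SE 0.0510, adjusted p = 2.06e-12). With decoction they were at 56.4% and 56.6% of C_Spinal, with log2 fold changes of -0.83 and -0.82. The row described as the type VI alpha 3 chain (ENSRNOG00000019648), also outside the name rule, rose 15.95-fold with injury and was at 56.3% of C_Spinal with decoction, both called. The alternative chains Col6a4, Col6a5 and Col6a6 were under the expression minimum, with Col6a6 the highest, at 0.22 ± 0.0505 in Sham (SD, n = 3), 1.01 ± 0.0807 in C_Spinal and 0.632 ± 0.0605 in T_Spinal.

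Col18a1 and Col15a1, the multiplexins that attach to basement membranes, and Col7a1, the anchoring fibril chain, all rose with injury and were lower with decoction. Col18a1, the source of endostatin, had an FPKM of 4.37 ± 0.296 in Sham (SD, n = 3), 49.7 ± 1.66 in C_Spinal and 28.9 ± 1.18 in T_Spinal, with log2 fold changes of 3.39 and -0.82. Col15a1 rose by 3.28 and fell by 0.82 on the log2 scale. A second row described as collagen alpha-1(XV) chain-like rose by 2.71 and was not called with decoction (log2 fold change 0.12, adjusted p = 0.556 in edgeR). That row could share reads with Col15a1 if the sequences are alike, which was not tested. Col7a1 rose by 2.44 and fell by 0.37, but the fall was not called with limma on FPKM rescaled to a common sum (adjusted p = 0.0677) or with a pseudocount of 0.1 (adjusted p = 0.0505).

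Of the fibril-associated collagens, which sit on the surface of fibrils, Col12a1, Col14a1, Col16a1 and Col20a1 rose with injury and fell with decoction. Col14a1 went from 1.51 ± 0.0775 (SD, n = 3) in Sham to 6.20 ± 0.181 in C_Spinal and 2.55 ± 0.0174 in T_Spinal, with log2 fold changes of 1.92 and -1.32. Col12a1 rose by 2.69 and fell by 0.84, Col16a1 rose by 1.38 and fell by 0.48, and Col20a1 rose by 1.52 and fell by 0.61. The type IX chains, partners of type II collagen in cartilage, did not share this course. Col9a3 had the highest mean FPKM of the collagens in Sham, within the range of Col11a2, at 33.7 ± 0.878, against 29.5 ± 0.849 in C_Spinal and 29.4 ± 3.51 in T_Spinal, and was called lower with injury by 0.31 on the log2 scale. Col9a2 was called lower by 0.80, and neither was called with decoction; without the first T_Spinal library Col9a3 was called lower (log2 fold change -0.15, adjusted p = 0.0352, against -0.04 with all libraries).

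Col28a1, a collagen known from peripheral nerve, had an FPKM of 0.530, 0.397 and 0.402 in Sham, 2.90, 2.94 and 3.09 in C_Spinal and 0.770, 1.09 and 0.698 in T_Spinal. Its T_Spinal libraries lay nearer to Sham than to C_Spinal and above every Sham library. It rose 6.13-fold with injury (log2 fold change 2.62, SE 0.204, adjusted p = 7.73e-07 in edgeR) and was at 28.0% of C_Spinal with decoction (log2 fold change -1.84, SE 0.196, adjusted p = 6.31e-05). Schwann cell markers moved with it in both comparisons: of 11 tested, 10 rose and 1 fell with injury, and 10 fell with decoction. They parted from it in T_Spinal against Sham, where 7 markers were lower (background 36.6%) and 3 higher (background 35%). Col28a1 was called higher there (log2 fold change 0.78, adjusted p = 0.00488 in edgeR). Summed FPKM of the markers ran from 921 to 955 in Sham, from 1498 to 1515 in C_Spinal and from 539.5 to 553 in T_Spinal, with none of the 11 at 0. The part of Schwann cell RNA in the change of Col28a1 and of the other collagens was not tested.

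The transmembrane collagens did not move as a group. Col13a1 rose by 2.93 on the log2 scale with injury, and its fall of 0.78 with decoction (adjusted p = 0.0181 in edgeR) was not called without the first T_Spinal library (adjusted p = 0.0639) or without the second (adjusted p = 0.0537). Col25a1, a collagen of neurons, fell from 3.58 ± 0.458 (SD, n = 3) in Sham to 0.314 ± 0.102 in C_Spinal and was 0.443 ± 0.0678 in T_Spinal. Its fall with injury was called (log2 fold change -3.60, SE 0.275, adjusted p = 6.61e-07 in edgeR) and its difference with decoction was not (0.45, adjusted p = 0.208). All 10 neuronal markers also fell with injury, and all 10 rose with decoction, where the difference of Col25a1 was not called. Summed FPKM of these markers was 2213 to 2311 in Sham, 211 to 214 in C_Spinal and 297 to 307 in T_Spinal. The part of neurons in the result was not tested. Col23a1 was called in neither of these comparisons, with log2 fold changes of -0.20 and -0.33, and was lower in T_Spinal than in Sham by 0.53 (adjusted p = 0.0036). Its difference with decoction was called lower with DESeq2 (-0.30, adjusted p = 0.0331), without the first C_Spinal library (-0.46, adjusted p = 0.0106) and without the second T_Spinal library (-0.42, adjusted p = 0.0443). Rows described as alpha-1(XXV) chain-like and alpha-1(XXIII) chain could share reads with Col25a1 and Col23a1. In all, 13 of the 17 tested other collagens were called higher (background 38.1%) and 3 lower (background 37.4%) with injury, with a median of 2.62. With decoction, 13 were lower (background 17.9%) and none higher (background 20.7%), with a median of -0.82. Among the tested genes of this class, Col13a1, Col28a1, Col7a1 and Col8a1 passed the minimum through the injured groups. Without a minimum, 16 of 26 were higher and 4 lower with injury (background 27.6% and 26.5%), with a median of 1.73.

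Of the proteins that fold procollagen, the chaperone gene Serpinh1 had the highest FPKM of the enzymes and chaperone in all groups. It was 51.7, 51.5 and 52.7 in Sham, 261, 257 and 259 in C_Spinal and 168, 161 and 160 in T_Spinal. The 3 groups were clearly apart. It rose 4.58-fold with injury (log2 fold change 2.19, SE 0.0289, adjusted p = 1.76e-12 in edgeR) and was at 61.5% of C_Spinal with decoction (log2 fold change -0.70, SE 0.0277, adjusted p = 1.19e-07). The 250 bases before its RefSeq start site (chr1:163062977-163063226, GRCr8, minus strand) are shown because HSP47 is a collagen-specific heat shock protein, with GGGCGG and GAANNTTC in capitals; each occurred 1 time.
Serpinh1: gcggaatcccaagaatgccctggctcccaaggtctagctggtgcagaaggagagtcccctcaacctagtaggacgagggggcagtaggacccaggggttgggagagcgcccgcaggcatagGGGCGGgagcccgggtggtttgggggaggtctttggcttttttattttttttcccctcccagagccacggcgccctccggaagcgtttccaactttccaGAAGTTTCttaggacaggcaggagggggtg

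The hydroxylases split by isoform. Plod1, which hydroxylates lysines in the helix, had an FPKM of 21.9, 23.5 and 24.4 in Sham, 54.8, 55.1 and 57.2 in C_Spinal and 55.9, 57.5 and 51.6 in T_Spinal. It rose 2.20-fold with injury (log2 fold change 1.14, SE 0.0511, adjusted p = 9.24e-09 in edgeR). The injured groups overlapped, and the difference with decoction was not called (log2 fold change -0.05, SE 0.0502, adjusted p = 0.434). Plod3, which also adds sugars, rose by 0.93 and was likewise not called with decoction (-0.03, adjusted p = 0.662); on FPKM rescaled to a common sum both differences were above 0 and uncalled. Plod2, which hydroxylates the lysines of the ends of the chains and so sets the type of cross-link, had 1.68 ± 0.0615 in Sham (SD, n = 3), 9.14 ± 0.132 in C_Spinal and 5.59 ± 0.703 in T_Spinal. It rose by 2.32 and was lower with decoction by 0.75 on the log2 scale, both called.

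The prolyl 4-hydroxylase subunits all rose with injury. P4ha1 rose least, from 20.3 ± 1.2 (SD, n = 3) to 27.2 ± 3.03, by 0.30 on the log2 scale (adjusted p = 0.00505 in edgeR), and was 30.5 ± 0.898 in T_Spinal, a difference from C_Spinal that was not called (0.13, adjusted p = 0.224), though limma called it on FPKM rescaled to a common sum (0.25, adjusted p = 0.0305). P4ha2 rose by 1.35 and was lower with decoction by 0.56, both called. P4ha3 rose by 1.70, at a level of 0.392 ± 0.176 in Sham and 1.40 ± 0.248 in C_Spinal, and was not called with decoction (-0.21, adjusted p = 0.639).

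The lysyl oxidases act after secretion, and Lox and Loxl1 had larger log2 fold changes than the other tested enzymes in both comparisons. Lox had an FPKM of 0.943, 0.709 and 0.720 in Sham, 28.0, 28.5 and 27.3 in C_Spinal and 8.87, 8.52 and 8.40 in T_Spinal. It rose 32.3-fold (log2 fold change 5.01, SE 0.103, adjusted p = 2.88e-11 in edgeR) and was at 30.0% of C_Spinal with decoction (log2 fold change -1.74, SE 0.0863, adjusted p = 4.56e-07). Loxl1, which also cross-links elastin, had 2.20, 2.22 and 1.92 in Sham, 51.7, 49.3 and 53.0 in C_Spinal and 23.2, 23.1 and 20.6 in T_Spinal. It rose 22.2-fold (log2 fold change 4.47, SE 0.0768, adjusted p = 8.83e-12 in edgeR) and was at 42.3% of C_Spinal (log2 fold change -1.24, SE 0.0657, adjusted p = 6.93e-07). For both genes the 3 groups stood apart in every library. Loxl2, which acts on type IV collagen, rose by 2.47 and fell by 0.44, and Loxl3 rose by 1.92 and fell by 0.37, all called. Loxl4 stayed under an FPKM of 1 in every library. Over the enzymes and chaperone, 11 of 11 tested were called higher with injury (background 38.1%), with a median of 1.92. Of these, Lox and P4ha3 passed the minimum through the injured groups. Without a minimum, 11 of 12 were called higher (background 27.6%), with a median of 1.82, and Loxl4 was not called. With decoction, 7 were lower (background 17.9%) and none higher (background 20.7%), with a median of -0.44. The 4 not called with decoction were P4ha1, P4ha3, Plod1 and Plod3.

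**Figure D4:**
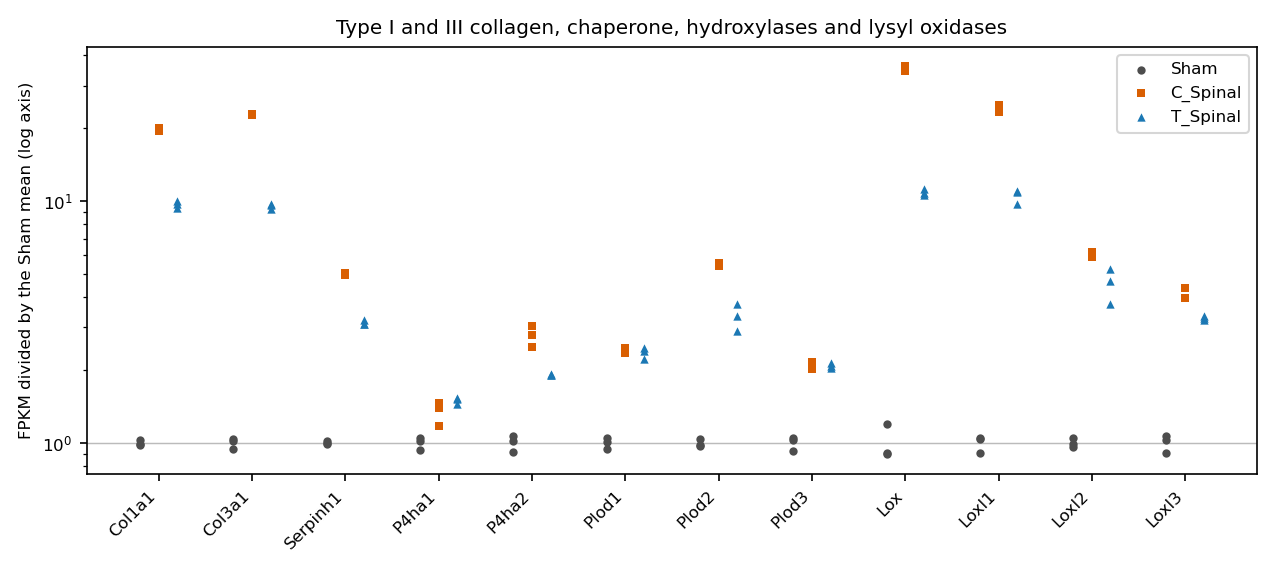
FPKM of type I and III collagen, the chaperone, the hydroxylases and the lysyl oxidases in each library, divided by the Sham mean of the gene (log axis), with grey circles for Sham, orange squares for C_Spinal and blue triangles for T_Spinal. P4ha3 and Loxl4 are not drawn. Lox and Loxl1 are highest in C_Spinal, and T_Spinal overlaps C_Spinal for P4ha1, Plod1 and Plod3.

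Because FPKM is per length, the enzymes can be set against their substrate. Relative to Col1a1, Plod1 was at 1.45 ± 0.0453 in Sham (SD, n = 3), 0.175 ± 0.00492 in C_Spinal and 0.353 ± 0.0129 in T_Spinal. P4ha1 was at 1.27 ± 0.0661, 0.0856 ± 0.0104 and 0.196 ± 0.00211, and Serpinh1 at 3.24 ± 0.0585, 0.812 ± 0.00785 and 1.05 ± 0.0192, in the same order. Lox went the other way, at 0.0494 ± 0.00934, 0.0878 ± 0.00307 and 0.0551 ± 0.000748 of Col1a1. So in C_Spinal the transcripts of these intracellular enzymes and the chaperone were fewer per Col1a1 transcript, and that of Lox more, than in Sham. Relative to Plod1, Lox was at 0.0343 ± 0.00766 in Sham, 0.502 ± 0.0224 in C_Spinal and 0.157 ± 0.00757 in T_Spinal, with no overlap between groups.

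The 54 genes together took 0.168% ± 0.000629 of all counts in Sham (SD, n = 3), 0.974% ± 0.00476 in C_Spinal and 0.539% ± 0.0125 in T_Spinal. Sums and shares here leave out the rows of type I alpha 2 and type VI alpha 3, which fell outside the name rule. The type I alpha 2 row had a mean FPKM of 15.2 in Sham, 210 in C_Spinal and 97.0 in T_Spinal. Of the summed collagen FPKM, the fibrillar class made up 44.1% ± 0.228 in Sham, 58.8% ± 0.232 in C_Spinal and 52.6% ± 0.115 in T_Spinal. Type IV chains made up 11.1% ± 0.323, 6.36% ± 0.0114 and 8.42% ± 0.0971, while their summed FPKM was 30.9, 105 and 74.7 in the same order. The other collagens made up 44.8% ± 0.0966, 34.8% ± 0.226 and 39.0% ± 0.0319. For each class the 3 groups did not overlap, and T_Spinal lay between the others. Single genes shifted more: Col3a1 went from 8.02% to 30.7% and 23.9% of the collagen FPKM, and Col11a2 from 11.8% to 0.549% and 1.24%.

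**Figure D5:**
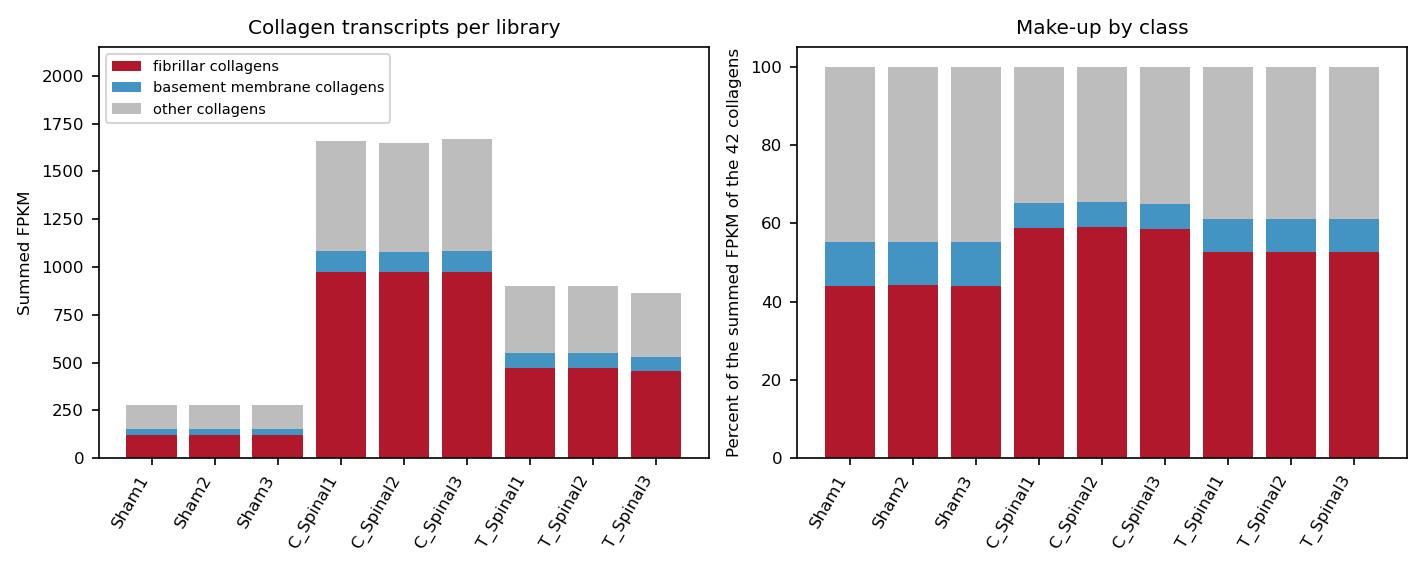
Summed FPKM of the 42 collagens in each library (left) and the percent of that sum by class (right), with red for fibrillar, blue for basement membrane and grey for other collagens. C_Spinal has the tallest bars and the largest fibrillar share, 58.8% against 44.1% in Sham. The type I alpha 2 and type VI alpha 3 rows, outside the name rule, are not included.

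The genes that work with collagen were followed through lists chosen with earlier results of these data known. The counts of these lists and of the marker lists are to be read beside the shares over all genes tested. With injury, 38.1% of all genes tested were called higher and 37.4% lower. With decoction, 20.7% were called higher and 17.9% lower. The 14 tested folding and secretion partners gave 12 higher and 2 lower with injury, and 2 higher and 5 lower with decoction. Creb3l1, a transcription factor for collagen secretion, rose by 2.19 and fell by 0.66 on the log2 scale, while P4hb, the subunit shared by all prolyl 4-hydroxylases, had an FPKM of 222 in both injured groups and was not called between them (log2 fold change -0.04, adjusted p = 0.27 in edgeR). P4hb was named after its values were seen. All 5 tested genes for propeptide removal rose with injury and fell with decoction; Pcolce, the enhancer of that step, rose by 3.48 and fell by 1.11. Of 17 tested fibril-regulating matrix proteins, 15 rose and none fell with injury, and 16 fell and none rose with decoction. Postn, which promotes cross-linking, rose by 4.37 and fell by 0.64, and Eln (elastin), a substrate of Lox, rose by 3.36 and fell by 1.78.

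All 15 tested basement membrane partners rose with injury, and 13 fell with decoction. Smoc2, a matricellular calcium-binding protein, changed most, from an FPKM of 0.749 in Sham to 19.6 in C_Spinal and 4.13 in T_Spinal, with log2 fold changes of 4.58 and -2.28. Nid2, a linker of laminin and type IV collagen, rose by 2.94 and fell by 0.99. Of 13 tested genes for collagen breakdown and its inhibitors, 10 rose and 1 fell with injury, and 9 fell and none rose with decoction. Ctsk, the collagen-cleaving cathepsin of macrophages and osteoclasts, went from an FPKM of 3.8 to 185 and 111 (log2 fold changes 5.49 and -0.78). Timp3, a metalloproteinase inhibitor, rose by 1.18 and fell by 0.72.

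Receptors and TGF-beta genes each went both ways with decoction. Of 7 tested collagen receptors, 5 rose with injury, and 2 fell (background 17.9%) and 1 rose (background 20.7%) with decoction. Ddr2, a receptor tyrosine kinase for fibrillar collagen, rose by 2.47 and fell by 0.43. Of 17 tested TGF-beta genes, 15 rose and 1 fell with injury. With decoction, 8 of them fell (background 17.9%) and 5 rose (background 20.7%). The ligand gene Tgfb1 rose by 2.82 and was not called with decoction (log2 fold change 0.24, adjusted p = 0.073 in edgeR), while the target genes Ccn2 and Tgfbi fell by 1.26 and 1.14.

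Called markers of the cells that make collagen mostly rose with injury and fell with decoction, by unlike amounts. Median log2 fold changes with injury were 3.14 (fibroblast), 3.50 (meningeal), 0.96 (pericyte and smooth muscle) and 0.56 (endothelial), against 1.92 for the 43 genes. For T_Spinal against Sham the medians were 2.03, 2.69, 0.30 and 0.32 in that order, against 1.34. Of 12 fibroblast markers, 11 rose and 1 fell with injury, and 8 fell and 1 rose with decoction, and their summed FPKM was 527 to 563 in Sham, 599 to 615 in C_Spinal and 375 to 385 in T_Spinal, with none at 0. The one that fell with injury and rose with decoction was Thy1, which neurons also express, at a mean FPKM of 477 in Sham. Of 12 tested meningeal rows, 11 rose and none fell with injury and all 12 fell with decoction. Their summed FPKM was 1377 to 1398 in Sham, 4583 to 4677 in C_Spinal and 2638 to 2750 in T_Spinal, with the second of 2 Crabp2 rows at 0 in T_Spinal. Of 12 pericyte and smooth muscle markers, 8 rose with injury and 6 fell with decoction (summed FPKM 136 to 150.5, 284 to 297 and 235 to 242.5). Of 10 tested endothelial markers, 7 rose and 2 fell with injury and 6 fell with decoction (157 to 158, 224 to 229 and 186 to 191), with Cldn5 listed at 0 in every library. Dcn, Lum and Dpt are on both the fibroblast and the fibril-regulating lists, and Fbln5 is on the latter and the Schwann cell list. The part of these cells in the collagen changes was not tested. The macrophage and microglia markers differed from the collagens with decoction, where 5 rose and 2 fell (summed FPKM 175 to 179 in Sham, 5234 to 5301 in C_Spinal and 5448 to 5550 in T_Spinal).

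Several collagens are also listed in pathway annotations as ligands of integrins. The deposited annotation places 340 genes in the KEGG PI3K-Akt signaling pathway, 15 of them collagens, of which 11 were tested. Of these 11, 7 rose (background 38.1%) and 4 fell (background 37.4%) with injury, with a median log2 fold change of 1.92. With decoction, 7 fell (background 17.9%) and 1 rose (background 20.7%), with a median of -0.61. Of the other 258 tested genes of the pathway, 49.2% rose and 37.2% fell with injury (median 0.24), and 27.5% rose and 26.0% fell with decoction (median 0.01). The collagens of the pathway were those of types I, II, IV, VI and IX.

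The 11 genes under the expression minimum were Col10a1, Col17a1, Col19a1, Col22a1, Col24a1, Col26a1, Col6a4, Col6a5, Col6a6, Col9a1 and Loxl4, tested only in the fit without a minimum. Col19a1, a collagen of interneurons, had an FPKM of 0.873, 0.756 and 0.848 in Sham and at most 0.0853 in an injured library, and was called lower in C_Spinal (adjusted p = 0.0033 in edgeR). Col24a1, a fibrillar collagen, had 0.872, 1.03 and 0.861 in Sham, 1.02, 1.12 and 0.855 in C_Spinal and 0.170, 0.307 and 0.353 in T_Spinal. Its level did not separate Sham from C_Spinal, and T_Spinal was at 27.3% of C_Spinal (log2 fold change -1.87, SE 0.262, adjusted p = 0.000377). Col22a1, Col26a1 and Col6a6 were called higher with injury, and Col6a6 lower with decoction. Col10a1, Col17a1, Col6a4, Col6a5 and Loxl4 were called in no comparison, and Col9a1 was called lower in T_Spinal than in Sham (adjusted p = 0.0156).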

How the data were processed

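Counts and levels came from the table the authors deposited, which holds for each gene and library a whole-number count and an FPKM value. HISAT and StringTie are named in the submitters' processing notes, without versions; no build, gene annotation version or strandedness of counting is given there, so reads of overlapping genes cannot be told apart. The deposited FPKM of a gene with a count of 0 is a small constant, set to 0 here.

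The deposited counts of all 9 libraries were fitted together with edgeR 4.0.16 (quasi-likelihood, TMM scaling, no covariate) in R 4.3.3, on the 14791 genes whose FPKM averaged 1 or more. Adjusted p-values are two-sided Benjamini-Hochberg values over those genes, and the SE is the log2 fold change divided by the root of the F statistic. A fold or a percent of another group is the fitted log2 fold change on the linear scale. The alternatives used DESeq2 1.42.0, limma 3.58.1 on log2(FPKM + 1), other scalings, filters and sets of libraries. Replicate pairs of each group differed by more than sampling noise. The scripts were tested on simulated data. Tables were read with the R package data.table (version 1.17.8) and pandas 2.3.3, and figures were drawn with matplotlib 3.10.9.

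The members, the gene lists and the rule for named genes were chosen with earlier results of these data known. The rule gives values in every library for the 2 most abundant genes of each class and the 2 with the largest change in each of the first 2 comparisons, and up to 3 genes of each list per comparison. Other values were given to account for every member. The lists cover folding and secretion, propeptide removal, fibril regulation, basement membrane, breakdown, receptors and TGF-beta, with markers of fibroblasts, meninges, pericytes and smooth muscle, endothelium, Schwann cells, macrophages and microglia, astrocytes, neurons, oligodendrocytes, cartilage and bone, and skeletal muscle. Promoter sequences and their coordinates are from RefSeq (GRCr8); gene coordinates are those of the deposited table, and the builds were not mixed.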

Additional observations from a re-analysis of the deposited data

How the results depend on the processing

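Of 116 called results for single members, 113 kept their direction and call under every alternative; the 3 others were Col4a3 (C_Spinal against Sham), Col7a1 and Col13a1 (both T_Spinal against C_Spinal). Total-count scaling moved the median over all genes to 0.14 in C_Spinal against Sham, from 0.02, and the common-sum rescaling moved it to 0.10 in T_Spinal against C_Spinal, from -0.00. The share of calls that were higher was then 75.1% in place of 53.6% for T_Spinal against C_Spinal under the common-sum rescaling, and 59.6% in place of 48.9% for T_Spinal against Sham under total-count scaling.

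The count of type IV genes lower with injury became 0 with total-count scaling, with limma on log2(FPKM + 1) and with limma on log2(FPKM + 0.1), and was 0 to 1 when single libraries were left out, with 0 only without C_Spinal replicate 1. The count of other collagens lower with injury was 5 with filterByExpr, which tested 18013 genes. It was 4 in the fit without an expression minimum, which tested 22666. The count of enzymes higher with decoction was 1 with the common-sum rescaling. The results that changed sign were all uncalled. Plod3 between T_Spinal and C_Spinal became 0.0015 with total-count scaling, 0.0055 with limma on log2(FPKM + 1), 0.089 with the common-sum rescaling and 0.0056 with limma on log2(FPKM + 0.1). Plod1 became 0.066 and Col9a3 0.069 with the common-sum rescaling. Leaving out 1 library moved Col9a3 to 0.00083 and 0.0091 (T_Spinal replicates 2 and 3), within a range from -0.15 to 0.0091, and Col9a2 to -0.034 and -0.026 (C_Spinal replicate 3 and T_Spinal replicate 2). Col27a1 between T_Spinal and Sham became 0.060 with total-count scaling, 0.055 with limma on log2(FPKM + 1) and 0.061 with limma on log2(FPKM + 0.1). The cause of these shifts was not tested.

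The replicate numbers did not pair the libraries: deviations of same-numbered libraries correlated at -0.0786 to 0.0920, with 0 of 9 over 0.1, and 1 of 9 libraries correlated best with its own number. With the replicate number as a block, 36 members were higher and 6 lower with injury, and 3 higher and 30 lower with decoction, and over all genes 5524 and 5442, and 2827 and 2408. Of the 11 members under the minimum, 5 were called in no comparison of the fit without a minimum.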

Other observations

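Of 10 astrocyte markers, 2 rose and 4 fell with injury, and 4 rose and 2 fell with decoction. Of 3 tested skeletal muscle markers, 1 rose and 1 fell with injury and none was called with decoction in edgeR.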
